A study of Rattus norvegicus with 36 samples.

Results

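The genes described here encode 6 collagen chains, the basement membrane glycoprotein nidogen 1 and the cross-linking enzyme lysyl oxidase-like 1: Col1a1, Col1a2, Col3a1, Col5a1, Col5a2, Col4a1, Nid1 and Loxl1. They were taken as every probe set on the 3 chip types (A, B and C) of the Affymetrix RG_U34 rat arrays whose platform annotation gave 1 of these 8 symbols and no other. This found 26 of 26202 probe sets, 12 on chip A, 1 on chip B and 13 on chip C: 6 for Col1a2, 4 each for Col1a1, Col3a1 and Col4a1, 3 for Nid1, 2 each for Col5a2 and Loxl1, and 1 for Col5a1. The arrays measured total RNA of rat dorsal root ganglia, which hold the cell bodies of sensory neurons, in a model of neuropathic pain made by ligating the L5 spinal nerve. There were 6 pools of RNA: L5 ganglia, the level of the ligated nerve, L4 ganglia from the operated rats, the level next to it, and a mix of L4 and L5 ganglia of sham-operated rats, each at 28 and 50 days after surgery. Most labels name 30 rats per pool, the design text states that pooling left no biological replicates, and strain, sex and age are not given in the sources used here. Both sham pools mix ganglia of both levels, so an L5 pool and a sham pool differ in level as well as in injury. Each pool was hybridised to 2 arrays of each chip type, 36 arrays in all, and these repeat arrays show technical spread only. A day within 1 ganglion type is therefore 1 pool, and no test was made between single pools.

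Collagen types I, III and V assemble into the fibrils of connective tissue, with type V chains built into the core of type I fibrils. Type IV collagen forms the sheet-like network of basement membranes, and nidogen links that network to laminin. Lysyl oxidases secreted into the matrix oxidise lysines so that collagen and elastin chains become cross-linked. In peripheral nerve and ganglia the fibrillar chains are made mainly by fibroblasts of the capsule, epineurium and endoneurium, while basement membranes surround Schwann cells, satellite glia and vessels.

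In all 8 genes the L5 pool at 28 days had the highest signal and the sham pool at 28 days the next highest, as judged by the brightest probe set of each gene. At 50 days the L5 pool no longer stood apart in this way. By the fold rule used throughout for single pools, a log2 difference of at least 1 with both arrays of one pool above both of the other, 17 of the 23 tested probe sets were lower in L5 at 50 days than at 28 days, where 4.94% of all 15721 tested probe sets were. The median difference was -1.35 for the 23 and 0.05 for all tested probe sets. With any size of difference, 22 of 23 had both 50-day arrays below both 28-day arrays, against 26.4% of all. In bulk tissue fewer cells of a type and less RNA per cell cannot be told apart.

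Before the levels of each gene, the tissue and the arrays were checked. All 15 genes of the sensory neuron list found on the arrays passed the filter on dim probe sets, among them Uchl1, Nefl and Nefm, so the labelled tissue held its defining markers. The 2 arrays of a pool correlated at 0.88 to 0.96, and the median signal of an array lay between 50.7 and 72.9 for chip A, between 70.7 and 86.9 for B and between 80.2 and 92.04 for C. Hybridisation controls, bacterial transcripts added to each sample, lay highest on the L5 arrays, at a mean log2 level of 0.38 at 28 days and 0.48 at 50 days relative to the chip mean, and lowest on those of L4 at 28 days, at -0.45. Scaling to these controls moves the median L5 minus sham difference over all probe sets from 0.01 to -0.35 at 28 days and from 0.03 to -0.55 at 50 days. It moves the median day difference within L5 from 0.05 to -0.04. A sham array of chip B carries different days in its title and its description. It was kept at 28 days by its title, and it correlated at 0.95 with the other 28-day sham array and at 0.93 with each 50-day sham array. The only member on that chip is the Col4a1 probe set rc_AA964892_at.

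**Figure D1:**
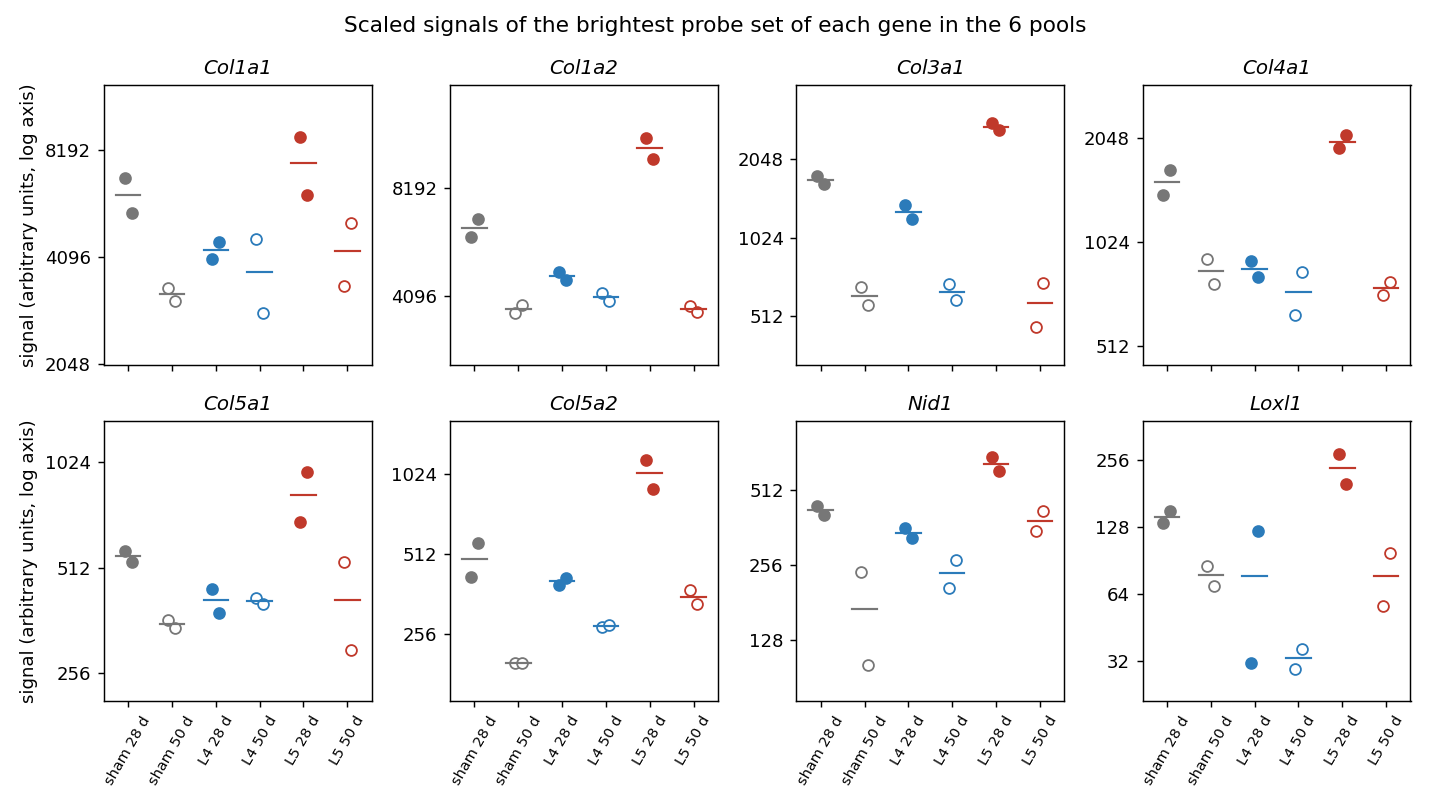
Signals in arbitrary units on a log axis for the brightest probe set of each of the 8 genes. Each point is 1 of the 2 arrays of a pool, bars are their means, filled points are 28 days and open points 50 days, in grey for sham, blue for L4 and red for L5. The filled red points of L5 at 28 days are the highest in every panel except Col1a1, where the lower of them, 6140.2, falls below the higher sham array, 6821.

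Type I collagen is a heterotrimer of Col1a1 and Col1a2 chains. The brightest Col1a1 probe set, M27207mRNA_s_at, gave signals of 8929 and 6140.2 in L5 at 28 days and 3403 and 5108 at 50 days. In sham it gave 6821 and 5455 at 28 days and 3346.5 and 3083 at 50 days, and in L4 4048 and 4524 at 28 days and 4609 and 2845 at 50 days. The L5 arrays of the 2 days did not overlap, nor did those of sham, but the L4 arrays did, since the L4 arrays at 50 days spread over both sides of those at 28 days. The log2 difference between 50 and 28 days was -0.83 in L5, -0.92 in sham and -0.24 in L4, so for this probe set the L5 and sham differences were of like size. The other 3 Col1a1 probe sets, of which Z78279_at and Z78279_g_at were designed on the same sequence, stood at -1.35, -1.05 and -0.86 in L5, at -0.56 to -0.68 in sham and at -0.53 to -0.79 in L4.

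Col1a2 has 6 probe sets, and 3 of them (rc_AI101443_s_at, rc_AI101443_r_at and rc_AI101443_i_at) share 1 source sequence, so they are not independent readings. The brightest, rc_AI101443_s_at, gave 11321 and 9896 in L5 at 28 days and 3845 and 3697 at 50 days. Its sham signals were 5972 and 6702 at 28 days and 3690 and 3867 at 50 days, while those of L4 were 4774 and 4547 at 28 days and 4193 and 3971 at 50 days. Both L5 arrays at 28 days lay above all 10 other arrays, the 28-day arrays lay above the 50-day arrays in each ganglion type, and L5 and sham overlapped at 50 days. The log2 difference between days was -1.48 in L5, which is a 2.80-fold higher level at 28 days, -0.74 in sham and -0.19 in L4. All 6 Col1a2 probe sets passed the fold rule in L5, with differences of -1.48 to -2.12. In sham 1 of the 6 did, rc_AA859284_at at -1.05, and the L4 differences ran from -0.19 to -0.67. Within a pool the 2 arrays differed by the largest ratio for rc_AI101443_i_at in L5 at 50 days, where the arrays gave 433 and 1010.

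Col3a1 forms type III collagen, a homotrimer that accompanies type I in compliant connective tissue. X70369_s_at, its brightest probe set, gave 2794.5 and 2630 in L5 at 28 days and 467 and 684 at 50 days. It gave 1759.7 and 1646 in sham at 28 days against 660.4 and 568 at 50 days, and 1368 and 1201 in L4 against 683.5 and 591. The arrays of the 2 days were apart in all 3 ganglion types, and at 28 days the pools were ordered L5 above sham above L4 with no overlap. At 50 days the 3 pools overlapped. The day difference was -2.24 in L5, the largest of any tested probe set of these genes, and -1.46 in sham and -0.998 in L4.

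The other Col3a1 probe sets did not all follow. M21354_s_at gave 655 and 637 in L5 at 28 days and 230.5 and 306 at 50 days, a difference of -1.24, with -0.27 in sham and -0.85 in L4. By contrast rc_AI236452_at gave 385 and 352 in L5 at 28 days and 495.5 and 355 at 50 days, which overlap. It was 0.38 higher at 50 days in L4, where the arrays were apart, and 0.21 higher in sham. A different probe set for the same gene thus did not show the day difference, and of the 23 tested it was the one lying above 0 in L5. The dim R46974_s_at, below the filter, gave 183 and 123.5 in L5 at 28 days and 12.1 and 11.6 at 50 days, with 7.5 to 59.8 on the other 8 arrays.

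Type V chains set the diameter of type I fibrils. Col5a1 has a single probe set, AJ005394_at, with signals of 693 and 959 in L5 at 28 days and 533 and 298 at 50 days. Sham gave 574 and 531 at 28 days and 363 and 345 at 50 days, and L4 gave 447 and 380.1 at 28 days and 420.3 and 403 at 50 days. L5 and sham were each lower at 50 days without overlap, at -1.01 and -0.62, and L4 did not separate the days (0.00, with overlapping arrays). The L5 value lies just past the fold rule.

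Col5a2 was read by rc_AI179399_at at 1163 and 905 in L5 at 28 days and 374 and 333 at 50 days. The sham arrays gave 418 and 565 at 28 days and 199 and 199 at 50 days, and the L4 arrays 390.5 and 417 at 28 days and 272 and 275 at 50 days. No neighbouring pools overlapped for this probe set: the order was L5, sham and L4 at 28 days, then L5, L4 and sham at 50 days. The day differences were -1.51 in L5, -1.24 in sham and -0.54 in L4. The dimmer rc_AI172281_at stood at -1.84, -0.60 and -0.61, with arrays apart in each.

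Col4a1, a chain of the most widespread type IV collagen, was read most brightly by rc_AI175875_s_at, at 1913 and 2081.5 in L5 at 28 days and 718 and 787.5 at 50 days. Sham gave 1397 and 1655 at 28 days and 914 and 777 at 50 days, and L4 gave 901 and 814 at 28 days and 632 and 839 at 50 days. L5 and sham were lower at 50 days without overlap, by -1.38 and -0.84, and L4 overlapped at -0.23. The chip B probe set rc_AA964892_at gave 1086.5 and 1118 in L5 at 28 days and 485 and 564 at 50 days, 969 and 989 in sham against 491 and 578, and 850.3 and 721 in L4 against 914 and 939.9. It was therefore lower at 50 days in L5 (-1.05) and sham (-0.86) but higher in L4 (0.24), each with arrays apart. The probe set rc_AI176393_at stayed between 302 and 385 on all 12 arrays, with day differences of -0.14 in L5, -0.14 in sham and -0.12 in L4. The dim rc_AI175875_i_at, below the filter, gave 24.6 to 92.1 over the 12 arrays.

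Nidogen 1 was read by rc_AI235948_s_at at 692 and 610.5 in L5 at 28 days and 350.3 and 420.3 at 50 days. Sham gave 443 and 406 at 28 days and 239.6 and 102 at 50 days, and L4 gave 361 and 328 at 28 days and 207 and 267 at 50 days. All 3 ganglion types were lower at 50 days without overlap. Here the sham difference, -1.32, exceeded that of L5, -0.73, and L4 stood at -0.51, but the 2 sham arrays at 50 days differed from each other by more than any other pair for this probe set. The dimmer rc_AI176500_at stood at -1.14 in L5 and -0.58 in sham, and its L4 arrays overlapped (-0.28). M15797_at, at 2.5 to 9.1 on all arrays, gave no usable reading.

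Loxl1, the cross-linking enzyme, was dim. Its brighter probe set, rc_AA800844_s_at, gave 272.5 and 199 in L5 at 28 days and 56.7 and 97.6 at 50 days, 134 and 150.1 in sham at 28 days against 85.9 and 69.6, and 31.5 and 123 in L4 against 29.6 and 36.4. The L5 and sham days did not overlap, with differences of -1.49 and -0.78, while the 2 arrays of L4 at 28 days lay far apart. The other probe set, rc_AA859805_at, gave 98.6 and 109.9 in L5 at 28 days and 61.8 and 71 at 50 days, 62.3 and 66.3 in sham against 61.4 and 46.3, and 64.6 and 57 in L4 against 22.1 and 16.2. It was the single probe set of the 23 to pass the fold rule in L4, at -1.21, and stood at -0.56 in L5.

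**Figure D2:**
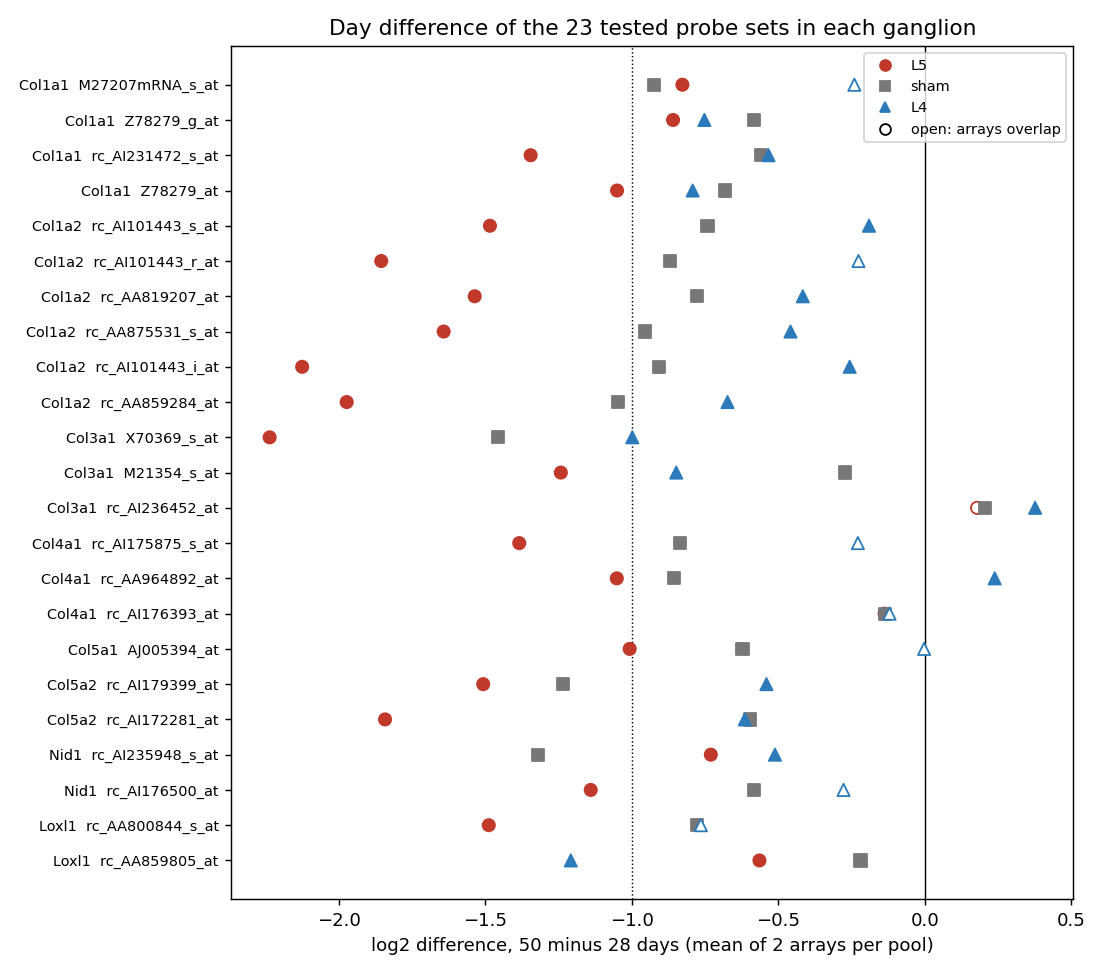
Log2 difference between 50 and 28 days for each of the 23 tested probe sets, as red circles for L5, grey squares for sham and blue triangles for L4. Open symbols have overlapping arrays, the solid line is 0 and the dotted line is the fold rule at -1. The L5 symbols of 17 probe sets lie past the dotted line, and those of Col3a1 rc_AI236452_at lie to the right of 0 in all 3 ganglion types.

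Over the set, the day difference was not limited to L5. In sham 22 of 23 probe sets were lower at 50 days with arrays apart, where 23.2% of all tested probe sets were, and the median was -0.78 against 0.02 for all. Past the fold rule there were 4 in sham, X70369_s_at of Col3a1, rc_AI179399_at of Col5a2, rc_AI235948_s_at of Nid1 and rc_AA859284_at of Col1a2, against 1.36% of all. In L4 14 of 23 were lower with arrays apart and 2 higher, against 21% of all lower, and the median was -0.46 against 0.03. The 1 past the fold rule in L4 compares with 0.795% of all. Scaled to the hybridisation controls, 1 member passed in sham and 6 in L4, so the order of sham and L4 turns with the scaling, while L5 kept a count of 17. Among all 26 members, dim ones included, 18 passed the fold rule in L5, where 4.35% of all 26202 probe sets did. No member passed the fold rule in the other direction in L5, where 5.44% of all tested probe sets did. By gene, the medians over the brightest probe sets of the 8 genes were -1.43 in L5, -0.88 in sham and -0.37 in L4, and all 8 lay below 0 in each. With that scaling they were -1.55 in L5, -0.60 in sham and -0.59 in L4. The 3 probe sets that failed the filter were 1 each of Col3a1, Col4a1 and Nid1, and none of the 23 passed it only through its highest pool.

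The day was tested over the 3 ganglion types together, with 1 pool of each ganglion type at each day (limma, 2 residual degrees of freedom, Benjamini-Hochberg over 15721 probe sets). Of the 23, 2 fell past an adjusted p of 0.05, where 0.286% of all tested probe sets changed in either direction. Col3a1 X70369_s_at fell by 1.56 ± 0.20 on the log2 scale (SE, limma adjusted p = 0.0093), lower at 50 days in 3 of 3 ganglion types. Col5a2 rc_AI179399_at fell by 1.09 ± 0.19 (SE, limma adjusted p = 0.0451), also lower in 3 of 3. Of the other 21 probe sets 19 had an unadjusted p under 0.05, as 2943 of all tested probe sets did, and 22 of 23 estimates lay below 0. The type I chains stood at -0.66 ± 0.17 (Col1a1 M27207mRNA_s_at, limma adjusted p = 0.117) and -0.81 ± 0.23 (Col1a2 rc_AI101443_s_at, limma adjusted p = 0.144), and did not pass. Of 19 alternatives run for each, the Col3a1 call ended in 3 and the Col5a2 call in 6. Both ended with 1 array per pool (limma adjusted p of 0.0554 and 0.105 for Col3a1, 0.144 and 0.232 for Col5a2) and with no intensity trend (0.198 for each), and that of Col5a2 also with no filter, quantile normalization or a 40th-percentile pseudocount (0.0889, 0.110 and 0.0511).

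Whether the day difference of L5 was larger than that of the other ganglia was tested with a term for L5 at 50 days (limma, 1 residual degree of freedom). None of the 23 passed, with a lowest limma adjusted p of 0.0841, and 12 had an unadjusted p under 0.05, against 1957 of all tested probe sets and 0.388% of all called. The term was negative in 21 of 23, with a median of -0.72. The lowest p belonged to Col1a2 rc_AI101443_i_at at -1.54 ± 0.32, which moved between -0.82 and -2.26 with 1 array per pool. The same test for sham called 0 of 23 and 0% of all probe sets, with 0 and 397 at an unadjusted p under 0.05. For L4 it called 0 of 23 and 0.0191% of all, with 8 and 718 at an unadjusted p under 0.05, and 20 of 23 members had a day difference less negative in L4 than in the others.

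The ligated ganglion was next set against sham at each day, which uses the same pools as the day differences, so these comparisons are not independent. At 28 days 22 of 23 probe sets had a higher mean in L5, 21 of them with arrays apart, where 25.7% of all tested probe sets were higher with arrays apart, and the median was 0.67 against 0.01. The fold rule was passed by 3, against 2.79% of all: Col3a1 M21354_s_at at 1.11, Col5a2 rc_AI179399_at at 1.06 and rc_AI172281_at at 1.01. The type I chains stood at 0.28 (Col1a1 M27207mRNA_s_at, arrays overlapping) and 0.74 (Col1a2 rc_AI101443_s_at), Col4a1 rc_AI175875_s_at at 0.39, Nid1 rc_AI235948_s_at at 0.59 and Loxl1 rc_AA800844_s_at at 0.67. Scaled to the hybridisation controls, 20 of 23 were still higher in L5 and none passed the fold rule. At 50 days 11 were higher and 12 lower in L5, with a median of 0.00. Past the fold rule there was 1, Nid1 rc_AI235948_s_at at 1.18, against 3.29% of all. Its sham arrays at 50 days gave 239.6 and 102, so the pass leans on the lower of them. Over the alternatives run the difference lay between 0.47 and 1.85. The Col5a2 probe set rc_AI179399_at was 0.79 and the Col3a1 probe set rc_AI236452_at 0.71 higher in L5 at 50 days, each with arrays apart. Scaled to the hybridisation controls, 3 of 23 were higher in L5 at 50 days and none passed.

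**Figure D3:**
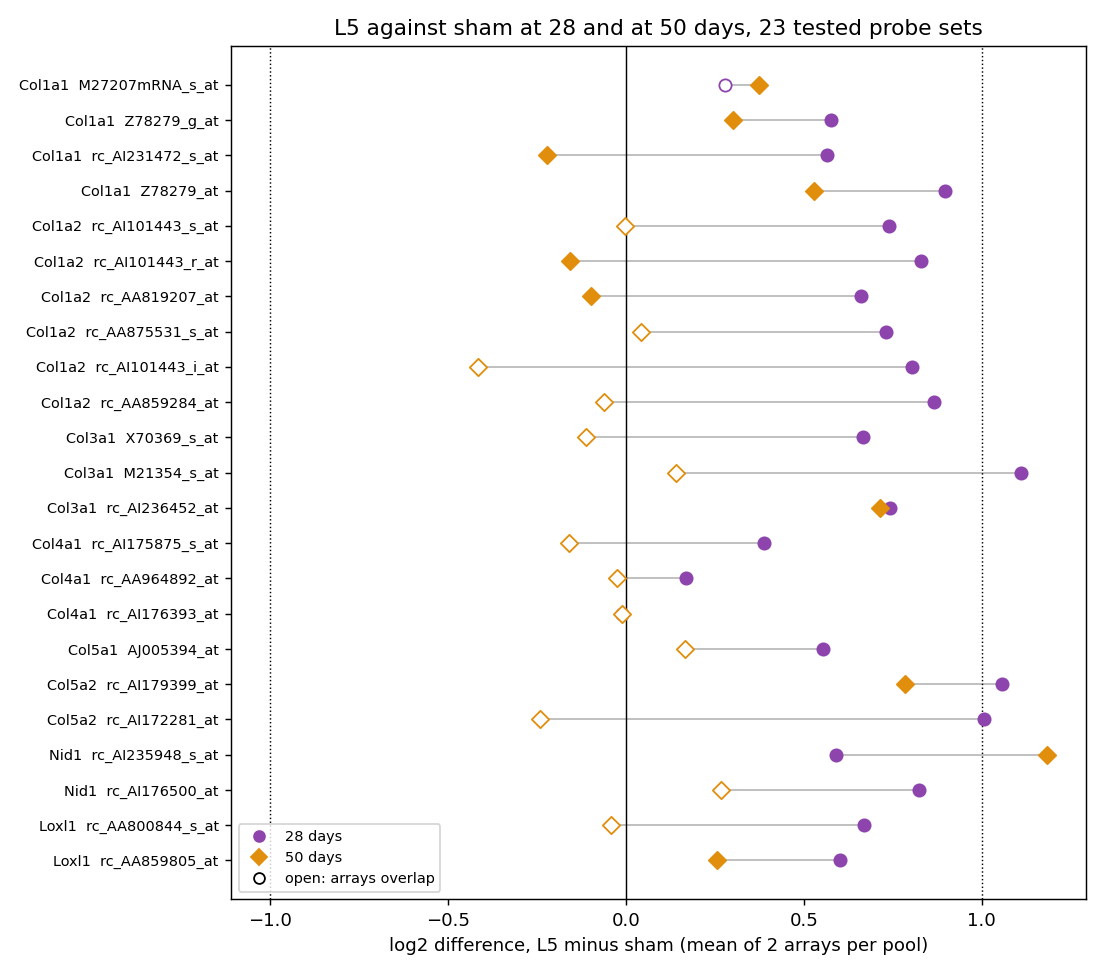
Log2 difference between L5 and sham for the 23 tested probe sets at 28 days (purple circles) and 50 days (orange diamonds). Open symbols have overlapping arrays, the solid line is 0 and dotted lines mark the fold rule. At 28 days all but Col4a1 rc_AI176393_at, hidden under its 50-day diamond, lie to the right of 0, and at 50 days the symbols lie on both sides.

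Over both days together limma called 0 of 23 members between L5 and sham, against 0.763% of all. An unadjusted limma p under 0.05 was reached by 6 members and 2660 of all probe sets. The lowest limma adjusted p was 0.0936, for Col5a2 rc_AI179399_at at 0.92 ± 0.23 and Nid1 rc_AI235948_s_at at 0.89 ± 0.22. The estimate was above 0 for 22 of 23, but for 7 of 23 when scaled to the hybridisation controls and for 10 of 23 without the 28-day L5 pool. Between L5 and L4 1 member rose, against 1.26% of all: Col3a1 rc_AI236452_at, the probe set without the day difference, at 0.93 ± 0.18 (SE, limma adjusted p = 0.0458). That call ended in 11 of the 19 alternatives run, and the estimate dropped to 0.19 when scaled to the hybridisation controls.

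The L4 ganglion was set against sham in the same way. At 28 days all 8 genes lay below sham by their brightest probe sets, with a median of -0.43. Of the probe sets 19 of 23 lay below sham, 17 with arrays apart against 22.6% of all, and none passed the fold rule, against 0.604% of all. Their median was -0.32. Loxl1 rc_AA800844_s_at was the furthest below, at -0.99. Scaled to the hybridisation controls, 16 of 23 lay above sham, so the direction rests on the scaling. At 50 days 13 lay above and 10 below, and 1 passed the fold rule, Loxl1 rc_AA859805_at at -1.06, against 0.878% of all. Over both days limma called 0 of 23 members and 0% of all probe sets, with 1 and 426 at an unadjusted p under 0.05.

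Promoter sequences are shown because these genes had like differences across the pools. RefSeq promoter windows (build GRCr8, the 250 bases before each annotated start) were at hand for 6 of the 8 genes. The letters CCAAT, searched on both strands, occur in 3 of them, Col1a2, Col4a1 and Nid1, each time as ATTGG on the gene's strand, and in 34.0% of all 33469 windows. TATAAA was found in Col1a2 alone, against 12.9% of all windows, and GGGCGG in Col4a1, Col5a1 and Nid1, against 30.5%. The stretches around the CCAAT letters are given 5′ to 3′ on the gene's strand, with ATTGG and TATAAA in capitals. They lie on the plus strand at chr4:33518321-33518407 for Col1a2, chr16:84885412-84885446 for Col4a1 and chr17:93069116-93069150 for Nid1, and the motif begins 221, 170 and 155 bases before the annotated start.
Col1a2: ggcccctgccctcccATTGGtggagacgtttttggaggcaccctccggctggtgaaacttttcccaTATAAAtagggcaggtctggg
Col4a1: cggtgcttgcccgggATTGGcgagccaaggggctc
Nid1: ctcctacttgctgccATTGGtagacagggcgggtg
In Col1a2 the ATTGG letters stand upstream of the TATAAA letters, which begin 170 bases before the annotated start. Whether any of these letters bear on the signals was not tested. The windows of Col5a2 and Loxl1, with L5 day differences of -1.51 and -1.49, hold none of the 3 motifs.

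Other genes of collagen biology were read by the brightest tested probe set of each gene on 4 lists, whose counts in L5 are to be read against 4.94% of all probe sets lower and 5.44% higher by the fold rule. The single passes, 1 lower of 16 and the upward ones, are near that background. Of 12 other collagen chains tested, 3 passed the fold rule downwards in L5 from 28 to 50 days (Col2a1 at -1.19, Col8a1 at -1.14 and Col15a1, which is also on the basement membrane list, at -1.02) and Col4a3 passed it upwards at 1.18. The list's median was -0.53. Col4a2, the partner chain of Col4a1 in the same type IV molecule, stood at -0.54 in L5. Of 16 genes of collagen synthesis, processing and cross-linking tested, 1 passed, Adamts2, the procollagen N-proteinase, at -3.09 in L5 and -1.51 in sham. Adamts2 was dim, with a mean signal of 56.1 just above the chip B filter of 53.6. Whether list genes passed the filter only through their highest pool was not checked, so little weight can be put on its differences. The median of that list was 0.01, with the lysyl oxidase Lox at 0.65 and Pcolce, which enhances removal of the C-propeptide, at -0.55. Of 14 basement membrane partners tested, 4 passed downwards in L5, among them the laminin chains Lamc1 at -1.52 and Lama2 at -1.08 and nidogen 2 (Nid2) at -1.49, and Lama1 passed upwards at 1.60. Col15a1, Lama2 and Col4a2 were singled out after their values were seen, the others by the size of their L5 difference. Of 11 matrix inducers and receptors tested, 2 passed downwards, the TGF-beta receptor Tgfbr1 at -1.24 and the collagen receptor Ddr2 at -1.10. Ddr1 came next by size in L5, in the other direction at 0.91. The median of that list was -0.33, with 4 of the 11 above 0. In L4 none of these genes passed in either direction, and limma called none of them in any comparison.

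Genes outside the set were ranked by how closely their level over the 6 pools followed the mean profile of the 8 genes, among 1397 probe sets of 1 gene with a standard deviation of at least 0.5. The profile stood at 1.04 in L5 at 28 days, 0.43 in sham at 28 days, -0.09 in L4 at 28 days, -0.29 in L5 at 50 days, -0.53 in L4 at 50 days and -0.56 in sham at 50 days, in log2 units around its mean. The 10 most alike were Fn1 (Pearson r = 0.996), Dcn (0.994), Ogn (0.991), Skil (0.9902), Aoc3 (0.989), Lum (0.988), Fndc1 (0.987), Rnase4 (0.985), Mgp (0.983) and Smoc2 (0.982). Fn1 encodes fibronectin, and Dcn, Ogn and Lum are small leucine-rich proteoglycans of the matrix. With 6 points that share libraries, 100 of the 1397 reached 0.9, so these values are a description. Among the set's own probe sets the coefficient ran from 0.70 to 0.99, apart from 0.26 for Col3a1 rc_AI236452_at.

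**Figure D4:**
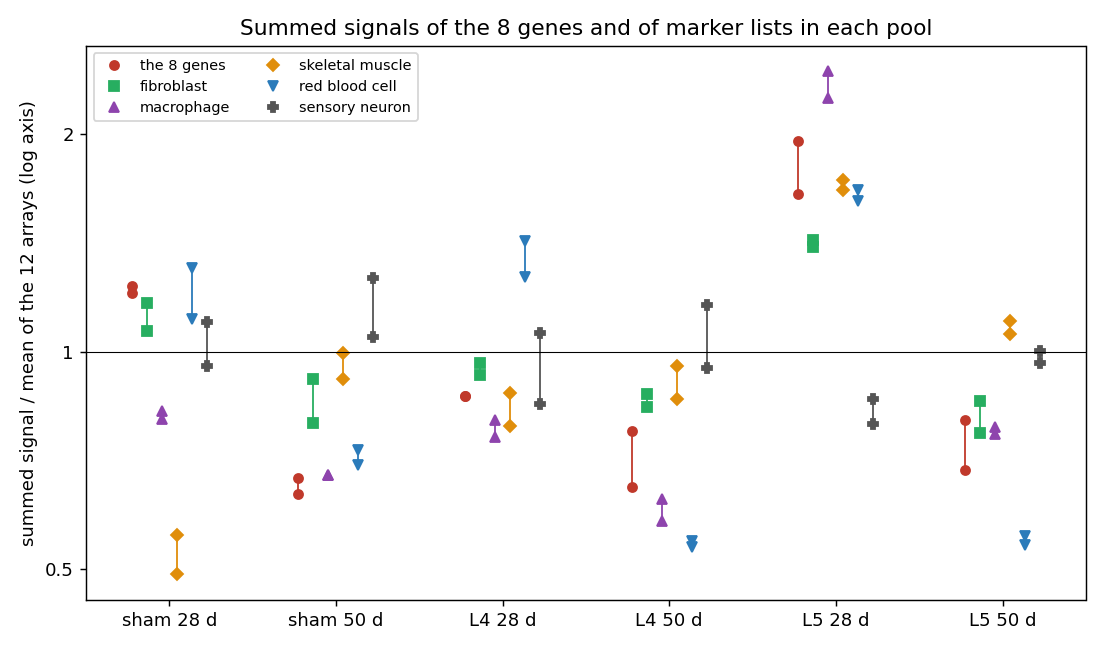
Summed signals of the 8 genes and of 5 marker lists on each array, divided by the list's mean over the 12 sums, on a log axis. Paired symbols joined by a line are the 2 arrays of a pool. In L5 at 28 days the sums of the 8 genes and of the macrophage, muscle, red cell and fibroblast lists all stand above 1 and that of the sensory neuron list below 1.

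Markers of some other cell types were also high in L5 at 28 days, and those of others were not. The summed signal of the 8 genes was 23421 and 27778 in L5 at 28 days, 17110 and 17518 in sham at 28 days and 9011 to 12333 in the other 4 pools. Fibroblast markers, Dcn and Lum of the genes most alike among them, 11 of 11 detected above the filter, summed to 20226 and 20683 in L5 at 28 days against 15503 and 16898 in sham at 28 days and 11175 and 12403 in L5 at 50 days. The fibroblast sum was 1.30 times as high at 28 as at 50 days in sham and 1.105 times in L4. It leaned on the brightest genes of the list, Thy1 and Dcn, with mean signals of 6394.7 and 4486.7. In L5 against sham at 28 days these moved in opposite directions, Thy1 at -0.50 and Dcn at 0.78. Its genes were not uniform: in L5 4 of 11 passed the fold rule downwards (Lum at -1.90, Apod at -1.84, Dcn at -1.58 and Pdgfra at -1.08), while 4 lay above 0 (Fbln1 at 0.53, Dpt at 0.41, Thy1 at 0.12 and Pdpn at 0.01), and in sham 5 of 11 lay above 0. Mural cell markers of vessel walls, 5 of 8 above the filter, summed to 1028 and 1250 in L5 at 28 days against 767 and 854 at 50 days, and to 1018 and 1254 in sham at 28 days against 732 and 800 at 50 days, with arrays apart in both. In L4 they summed to 810 and 860 at 28 days against 844 and 917 at 50 days, which overlap. At 28 days the mural sum of L5 was 1.003 times that of sham, where the sum of the 8 genes was 1.479 times. The sums of some other lists did not follow the set over the days in L5. Endothelium markers summed to 1.043 times as high at 28 as at 50 days and satellite glia markers to 1.042 times. Their genes were not uniform. The 7 endothelium genes tested had a median of -0.35 in L5, with 2 above 0. The satellite glia sum leaned on Apoe and S100b, with mean signals of 5381.2 and 2906.7. In that list Gja1 passed the fold rule downwards in L5 at -1.75 and Fabp7 upwards at 1.02. The ratio of the sums at 28 and 50 days in L5 was 0.945 for myelinating Schwann cell markers. It was 0.606 for fat markers, of which 2 of 6 were above the filter. That sum leaned on Lep, at a mean signal of 835.6, with Lpl at 89.9 and the others at 5.3 to 25.6. Macrophage markers, 10 of 12 above the filter, summed to 5839 and 6365 in L5 at 28 days and to 1522 to 2160 on all other arrays. Against sham at 28 days the brightest of them, Lyz2, Cd68, Fcer1g and Ctss, stood at 1.76, 0.62, 1.13 and 1.84 in L5. No count by the fold rule is given, since a dim marker can pass the filter through that L5 pool alone. Which markers did so was not checked. The largest difference, 2.80 for C1qb, is of a dim gene, with a mean signal of 55.6 against a chip A filter of 39.3. Skeletal muscle markers, 13 of 16 above the filter, summed to 4667 and 4822 in L5 at 28 days, 2955 and 3079 in L5 at 50 days and 1373 and 1557 in sham at 28 days, but 2555 and 2779 in sham at 50 days. Red blood cell markers summed to 10261 and 10630 in L5 at 28 days and 3435 and 3529 at 50 days, with 7052 and 8280 in sham at 28 days against 4419 and 4634, and 8046 and 9024 in L4 against 3410 and 3472. No marker of these lists had a mean signal of 0. The lowest was Plin1 of the fat list, at 5.3. Des, on the muscle and mural cell lists, stood at 12.9, and the lowest of the macrophage list, Itgam, at 14.4. The sensory neuron sum had its lowest mean in L5 at 28 days, at 34064 and 36882, and ran from 36312 to 54142 on the other arrays, so these overlap. The muscle sum moved against the collagens in sham, where it was 0.549 times as high at 28 as at 50 days while that of the 8 genes was 1.87 times as high. The macrophage sum of sham was 1.21 times and that of L4 1.29 times as high at 28 as at 50 days. The red cell sum, like that of the set, was higher at 28 days in all 3 ganglion types. The part of these cell types in the collagen differences was not tested.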

How the data were processed

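Total RNA of 6 pooled samples was read on 36 arrays. The authors deposited linear intensity signals. The submitters' processing notes name MAS5, with no version in the sources used here. As deposited, each array's mean intensity without the top and bottom 2% lay at 149.7 to 150.0, and arrays of a chip type were rescaled to a common value of it. Signals were transformed to log2(signal + pseudocount), the pseudocount being the 20th percentile of a chip type (12.8, 17.7 and 20.2), which understates folds of dim genes. Probe sets with a mean under the 40th percentile were left out, as were controls. Arrays of a pool were averaged, and limma 3.58.1 in R 4.3.3 was fitted with condition and day (intensity trend, adjusted p threshold 0.05); the code was tested on simulated data. P-values measure only the spread between these pools. Members, lists and tests were chosen with earlier results of these data known. A gene is named by its brightest probe set, with the others given beside it; list genes are those called or the largest in L5. Array numbers did not pair pools (correlations of -0.102 to 0.108). All 8 symbols matched RefSeq.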

Additional observations from a re-analysis of the deposited data

Results flagged for a closer look

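Some probe sets differed in opposite directions under the same contrast, with the arrays of the pools apart on both sides; each side is 1 pool against 1, and the difference between the 2 effects was not tested. The Col4a1 probe set rc_AA964892_at, on the chip type with the doubtful sham array, stood at -1.05 from 28 to 50 days in L5 but at 0.24 in L4, and at -0.86 in sham against 0.24 in L4. Against sham, the same probe set in L4 was at -0.32 at 28 days and 0.78 at 50 days.

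L5 against sham was higher at 28 days and lower at 50 days for Col1a1 rc_AI231472_s_at (0.57 and -0.22), Col1a2 rc_AA819207_at (0.66 and -0.10) and Col1a2 rc_AI101443_r_at (0.83 and -0.16). L4 against sham was lower at 28 days and higher at 50 days for Col5a1 AJ005394_at (-0.41 and 0.21), Col5a2 rc_AI179399_at (-0.26 and 0.43), Col1a2 rc_AA819207_at (-0.21 and 0.15), rc_AI101443_i_at (-0.44 and 0.21) and rc_AI101443_s_at (-0.44 and 0.11). The last pair share a source sequence.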

How the results depend on the processing

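The count of probe sets lower in L5 at 50 days, 17 of 23, stayed between 14 and 19 under every alternative run for it. Counts of members called by limma moved more, and the causes were not tested. Counts over all tested probe sets moved widely too, so the member counts below cannot be read alone. Over the alternatives they ran from 0 to 2940 for L5 against sham and from 0 to 6756 for L5 against L4. For the day they ran from 0 to 1027, and for the L5 day difference from 1 to 97. With 12 arrays and the pool as a random block, 5 were called for L5 against sham, 6 for L5 against L4 and 17 for the day, and 4, 4 and 17 with the array number added as a replicate block. These 12-array fits draw on repeat arrays of the same pools, which show technical spread only. For L5 against L4 no filter, quantile normalization and no intensity trend each gave 0, and hybridisation-control scaling 2. For the day a 40th-percentile pseudocount, no filter and quantile normalization each gave 1, median centring and hybridisation-control scaling 7, and no intensity trend 0. The L5 day difference gave 1 with median centring. With 1 pool or array left out, the counts spanned 0 to 7 for L5 against sham (7 without the 50-day L5 pool), 0 to 14 for L5 against L4 (14 without that pool), 0 to 16 for the day (16 without either L4 pool) and 0 to 1 for the L5 day difference.

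Of the single-pool counts, hybridisation-control scaling gave 1 for sham over the days, 6 for L4 over the days, 0 for L5 against sham at 28 and at 50 days and 2 for L4 against sham at 50 days. Median centring gave 2 for L4 over the days, 0 for L5 against sham at 28 days and 2 for L4 against sham at 50 days. For both of these L4 counts a 40th-percentile pseudocount and a 60th-percentile filter gave 0 and a 5th-percentile pseudocount 2. Quantile normalization gave 2 for L4 against sham at 50 days, and a 5th-percentile pseudocount 1 for L4 against sham at 28 days. With 1 array per pool L4 over the days spanned 1 to 5, L4 against sham 1 at 28 days and 1 to 2 at 50 days. The 2 arrays per pool limit the precision of every gene.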
